A study of Mus musculus with 15 samples.

Results

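The 33 genes described here encode the enzymes that make cholesterol and long-chain fatty acids, and the proteins that set how strongly those enzymes are transcribed. They were listed by name as genes of these pathways, with earlier results of these data known, and all 33 were found among the 53337 genes to which transcript values could be summed. They comprised 18 sterol enzymes, 6 regulators (among them a sterol carrier) and 9 fatty acid enzymes. The measurements were mRNA-seq libraries of C57BL/6J dorsal forebrain at embryonic day 18 (E18), from dams infused through gestation with arginine vasopressin (AVP) or with saline by subcutaneous osmotic minipump. There were 4 AVP male, 4 saline male, 3 AVP female and 4 saline female libraries, each from 1 brain. The authors had left out 1 further AVP female as an outlier because of its high variance. The study uses AVP infusion as a model of preeclampsia, a hypertensive disorder of pregnancy, and the hormone is given to the dam and not to the fetus. The brains came from 8 litters, and the paper states that those of each group and sex came from separate litters. Males and females therefore share litters, but the labels do not link a library to its litter. P-values measure the spread between these libraries. Values are in TPM, transcript abundances divided by transcript length and scaled to the same total in every library, so that levels may be compared between genes but the sequencing depth of a library is unknown.

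The developing brain makes most of its own cholesterol, for the membranes of growing neurons and glia. When sterol in the endoplasmic reticulum is low, SCAP carries the membrane-bound SREBP transcription factors to the Golgi, where they are cut, and the freed fragment switches on the sterol and fatty acid genes. When sterol is high, INSIG proteins hold SCAP in the endoplasmic reticulum and transcription falls. Because the same factors act on nearly every step, these genes are known to move as a group.

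One library went against its label. Saline male 3 held 266 TPM of Xist, the RNA made from the inactive X chromosome, and a summed 0.489 TPM of 4 genes of the Y chromosome (Uty, Ddx3y, Eif2s3y and Kdm5d). The other male libraries held 0.121 to 1.13 TPM of Xist and 102 to 155 TPM of the Y-linked sum, and the female libraries 174 to 294 and 0.25 to 1.01. It is called the library labelled saline male 3 here, and the main male counts, and the fold changes of the 13 genes with the lowest male p-values, are also given without it. AVP female 3 also stood apart, since it was the lowest of the 15 libraries for 28 of the 33 genes, and female results are given without it. Its values were low beyond these genes too. Over genes above 0 in every library, the median log2 ratio to the gene's mean was −0.18 in AVP female 3, the lowest of the 15. It was 0.20 in AVP female 2, the highest. How many of all genes were lowest in AVP female 3 was not counted. Markers of the labelled tissue were present. None of the 8 markers of cortical plate neurons (among them Tbr1 and Neurod6) was at 0 throughout a group. That held for every marker list examined, so it does not tell dorsal forebrain from other tissue. The summed level of the 8 was 1030 to 1400 TPM over the libraries. The 10 markers of interneurons and ventral forebrain summed to 159 to 296 TPM. Markers of meninges, choroid plexus and blood were also present and varied widely. Their sums ran from 54.2 to 267 TPM for the 8 meningeal markers, from 3.34 to 2260 TPM for the 7 choroid plexus markers and from 2240 to 13700 TPM for the 6 red blood cell markers.

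Promoter sequence is shown for 4 of the genes, because the group is known through shared control at its promoters and because the genes below varied together. RefSeq promoter windows, running from 250 bases before to 50 bases after a start site (GRCm38.p6), were matched for 26 of the 33 genes. Fdps, Fdft1, Stard4, Fads1, Scd1, Sqle and Scd2 were not matched. Both strands were searched for 4 sets of letters. The NF-Y box, CCAAT, was in a window of 21 of the 26 genes (80.8%) and of 41.1% of all 27025 genes with a window. It was found for 14 of 15 sterol enzymes, 4 of 5 regulators and 3 of 6 fatty acid enzymes. The GC box, GGGCGG, bound by Sp1, was also in a window of 21 of the 26 genes, against 38.2% of all genes. The E-box, CACGTG, was found for 6 of the 26 (23.1%, against 8.09% of all genes), namely Hsd17b7, Sc5d, Dhcr7, Insig1, Scap and Elovl5. A sterol regulatory element spelled TCACNCCAC was found for Hmgcs1 alone (1 of 26, 3.85%), against 1.44% of all genes. The sterol element did not overlap an NF-Y box. These are matches of letters and not measured sites, and other spellings were not searched. The genes with a window were not limited to expressed ones, and the shares among expressed genes were not counted.

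The 4 stretches below are the 250 bases before the start, 5′ to 3′ on the gene's strand, with the NF-Y box (CCAAT, or ATTGG on the other strand) and the sterol element in capitals. Hmgcs1 is the most abundant of the genes, Lss had the lowest p-value among them in males, Mvd the lowest fold change in females, and Insig1 encodes the feedback protein. They lie at chr13:119690101-119690350 (Hmgcs1, plus strand), chr10:76531355-76531604 (Lss, plus strand), chr8:122443423-122443672 (Mvd, minus strand) and chr5:28071162-28071411 (Insig1, plus strand).
Hmgcs1: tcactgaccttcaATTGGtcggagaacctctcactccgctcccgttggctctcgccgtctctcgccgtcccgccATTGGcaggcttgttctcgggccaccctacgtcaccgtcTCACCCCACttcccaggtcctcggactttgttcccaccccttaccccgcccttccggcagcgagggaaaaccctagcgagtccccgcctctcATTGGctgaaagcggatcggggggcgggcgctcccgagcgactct
Lss: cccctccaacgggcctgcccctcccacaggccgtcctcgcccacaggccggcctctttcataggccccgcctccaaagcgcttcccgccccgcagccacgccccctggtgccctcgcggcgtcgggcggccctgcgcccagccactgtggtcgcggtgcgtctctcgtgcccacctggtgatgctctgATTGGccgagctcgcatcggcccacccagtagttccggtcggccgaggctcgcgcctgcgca
Mvd: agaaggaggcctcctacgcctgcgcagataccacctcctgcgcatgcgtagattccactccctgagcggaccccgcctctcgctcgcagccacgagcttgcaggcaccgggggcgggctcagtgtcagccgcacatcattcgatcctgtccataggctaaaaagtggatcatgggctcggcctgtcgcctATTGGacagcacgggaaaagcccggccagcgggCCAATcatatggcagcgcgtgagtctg
Insig1: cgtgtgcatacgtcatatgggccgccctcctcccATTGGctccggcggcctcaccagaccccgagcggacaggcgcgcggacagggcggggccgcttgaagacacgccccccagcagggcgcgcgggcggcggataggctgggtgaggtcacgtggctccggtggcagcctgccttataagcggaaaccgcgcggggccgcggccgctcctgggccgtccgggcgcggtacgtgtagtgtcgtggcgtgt
Hmgcs1 had 3 NF-Y boxes and the sterol element in this stretch, Mvd had 2 NF-Y boxes, and Lss and Insig1 had 1 each.

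All 33 genes were expressed, with at least 1 TPM in every library, and all passed the filter in every comparison. Over the 8 saline libraries Hmgcs1, which makes the building block of the mevalonate pathway, was the highest at 494 ± 48.2 TPM (SD, n = 8), above 98.5% of genes with at least 1 TPM. Next came the desaturase Scd2 at 348 ± 24.3 TPM and the farnesyl diphosphate synthase Fdps at 346 ± 30.3 TPM, whose ranges overlapped. Acat2, the cytosolic thiolase, stood at 205 ± 16.5 TPM, and the desaturase Fads2 at 196 ± 18.5 TPM. The squalene synthase Fdft1 (155 ± 11.2 TPM), the squalene epoxidase Sqle (151 ± 12.1 TPM), the fatty acid synthase Fasn (150 ± 23.1 TPM) and the ATP citrate lyase Acly (133 ± 12.8 TPM) followed. At the lower end were the regulators Insig2 (25.0 ± 3.73 TPM) and Stard4 (18.0 ± 1.79 TPM), Scd1 (14.99 ± 2.01 TPM), the sterol isomerase Ebp (11.1 ± 1.66 TPM) and the ketoreductase Hsd17b7 (10.2 ± 1.14 TPM). Only 3 of the 32 pairs of neighbours in this order did not overlap between saline libraries: Hmgcs1 above Scd2, Fdps above Acat2, and Fads2 above Fdft1. Scd1 and Scd2 are paralogs, and how the mapping shared their reads is uncertain. Among the regulators Srebf2, the factor known for sterol genes, was at 85.8 ± 5.26 TPM and Srebf1, the factor known for fatty acid genes, at 35.2 ± 5.69 TPM.

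The ratio of the highest to the lowest library was 1.25 for Fdft1, the lowest, and 2.18 for Tm7sf2, the highest, with a median of 1.68 over the 33 genes. The median coefficient of variation of the members was 8.31% in saline females, where that of genes of like level was 10.26%, and 9.37% in AVP males, where it was 11.8%. It was 10.3% in saline males against 8.97%, and 20.5% in AVP females against 16.7%. AVP female 3 was the lowest library for 28 of the 33 genes, while saline male 1 and the library labelled saline male 3 were the highest for 9 each and AVP female 2 for 7.

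**Figure D1:**
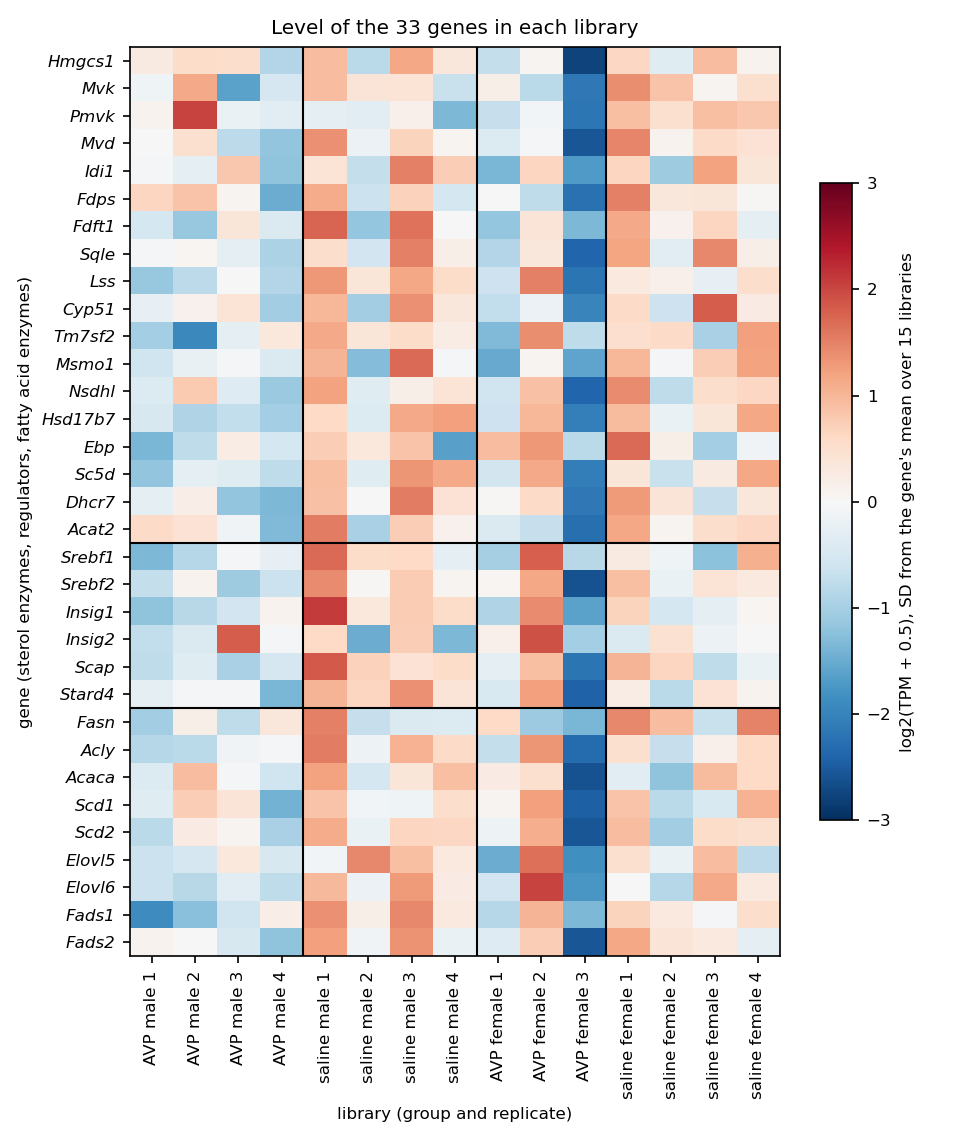
Level of the 33 genes (rows) in the 15 libraries (columns), as log2(TPM + 0.5) in SD from each gene's mean over the libraries, with lines between groups and between roles. AVP female 3 is dark blue in nearly every row, and it was the lowest library for 28 of the 33 genes.

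The first comparison asked whether the genes differed between AVP and saline males. Fold changes are on the log2(TPM + 0.5) scale, and errors beside them are SE. No member passed an adjusted p of 0.05 by limma with Benjamini-Hochberg adjustment over 15271 genes, and the lowest adjusted p among members was 0.304. The test called 1 gene of all (0.00655%), the microRNA gene Mir6392, named here after its value was seen. Without adjustment 2057 genes had p under 0.05. Of the 33 members 31 had a log2 fold change below 0, where 73.6% of all genes did. At an unadjusted p under 0.05, 13 of the 33 (39.4%) were lower with AVP, where 12.4% of all genes were, and none was higher. The median log2 fold change was −0.14 over members and −0.10 over all genes, and 23 of 33 members lay below the latter. Without AVP male 4 both medians were −0.12.

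The regulators had the lowest median of the 3 roles in males. It was −0.28 on the log2 scale, and 5 of the 6 had an unadjusted p under 0.05. Scap, the escort of SREBP, was at 33.5, 35.4, 32.6 and 34.7 TPM in AVP males and 47.3, 40.7, 39.3 and 39.9 TPM in saline males. The groups did not overlap, and the log2 fold change was −0.29 ± 0.077 (SE; adjusted p = 0.304 by limma). Insig1, which holds SCAP back and is itself a target of SREBP, was at 51.1, 53.6, 55.5 and 60.3 TPM in AVP males and 77.6, 62.1, 65.6 and 63.9 TPM in saline males. These groups did not overlap either, and saline male 1 was the highest (log2 fold change −0.28 ± 0.088, adjusted p = 0.304 by limma). Stard4, a carrier of sterol between membranes, was at 16.1, 16.7, 16.6 and 13.6 TPM in AVP males and 19.7, 18.6, 20.8 and 17.8 TPM in saline males, again without overlap (log2 fold change −0.28 ± 0.096, adjusted p = 0.310 by limma). Srebf1 was at 25.7, 28.1, 32.6 and 31.5 TPM against 44.9, 36.4, 36.7 and 31.2 TPM, and the groups overlapped by 1 saline library (log2 fold change −0.33 ± 0.12, adjusted p = 0.320 by limma). Srebf2 was at 72.0 to 82.4 TPM in AVP males and 81.6 to 95.4 TPM in saline males (−0.19 ± 0.073 on the log2 scale, adjusted p = 0.331 by limma). Insig2, the other INSIG, lay the other way. It was at 22.5, 23.8, 35.8 and 25.5 TPM in AVP males and 28.8, 19.6, 29.4 and 20.1 TPM in saline males, with broad overlap (log2 fold change 0.14 ± 0.19).

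Among the 18 sterol enzymes the male median was −0.12, close to that of all genes, and 5 had an unadjusted p under 0.05. All 5, named here after their values were seen, act after squalene. Lss, which closes squalene epoxide into the first sterol, was at 25.3, 27.1, 31.5 and 26.6 TPM in AVP males and 40.8, 33.9, 39.8 and 35.2 TPM in saline males. The groups did not overlap, and Lss had the lowest p-value of the members (log2 fold change −0.43 ± 0.095, adjusted p = 0.304 by limma). Hsd17b7, a ketoreductase of the sterol nucleus, was at 8.36, 7.73, 7.95 and 7.56 TPM in AVP males and 10.2, 8.47, 11.2 and 11.4 TPM in saline males, without overlap (log2 fold change −0.35 ± 0.11). Tm7sf2, a sterol reductase, differed by −0.44 ± 0.15 on the log2 scale, and AVP male 4 at 57.9 TPM lay above saline male 4 at 56.7 TPM. Sc5d and Dhcr7, which make the last double-bond changes before cholesterol, each differed by −0.28 (SE 0.091 and 0.099), and each overlapped by 1 library. The other 13 sterol enzymes ran from −0.21 for Mvd to 0.15 for Pmvk, both before squalene. Hmgcs1 was at −0.06 ± 0.10, Fdps at −0.02 ± 0.10, Idi1, the isopentenyl diphosphate isomerase, at −0.14 ± 0.12, and after squalene Cyp51, the lanosterol demethylase, was at −0.09 ± 0.087 and Msmo1 at −0.10 ± 0.093. Pmvk, the phosphomevalonate kinase, was the 1 sterol enzyme above 0, at 0.15 ± 0.105.

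All 9 fatty acid enzymes were below 0 in males, with a median of −0.14, and 3 had an unadjusted p under 0.05. Elovl6, which lengthens palmitate to stearate, was at 26.2, 25.4, 27.6 and 25.7 TPM in AVP males and 33.7, 28.2, 35.3 and 30.1 TPM in saline males. The groups did not overlap, and the AVP males lay close together (log2 fold change −0.27 ± 0.086, adjusted p = 0.304 by limma). Fads1, a desaturase of polyunsaturated fatty acids, was at 72.7, 77.3, 82.4 and 89.0 TPM against 99.5, 88.9, 100.4 and 89.8 TPM (log2 fold change −0.24 ± 0.080), with an overlap of 1 library. Acly, which supplies acetyl-CoA for both pathways, was at 110.6, 111.4, 122.8 and 124.1 TPM against 154, 122, 144 and 135 TPM (−0.24 ± 0.083 on the log2 scale), with 2 AVP males above saline male 2. Fasn itself was at −0.07 ± 0.12, and saline male 1 at 175 TPM lay far above the other saline males at 127 to 132 TPM.

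In all, 6 members did not overlap between AVP and saline males and were lower with AVP, namely Lss, Hsd17b7, Insig1, Scap, Stard4 and Elovl6. That is 18.2% of the members, where 6.54% of all genes tested did so. Without overlap the exact two-sided permutation p of 4 libraries against 4 is always 0.0286, so it adds nothing to this count. The count was 10 without AVP male 2 (10.8% of all genes), 13 without saline male 2 (11.7%) and 6 without saline male 3 (7.58%). Leaving out saline male 3, whose label its transcripts went against, 10 members instead of 13 had an unadjusted p under 0.05 (7.10% of all genes), and the median over members was −0.15 against −0.08 over all genes. Lss was then at −0.40, Tm7sf2 at −0.44, Hsd17b7 at −0.31, Sc5d at −0.24 and Dhcr7 at −0.23 on the log2 scale. Among the regulators Srebf1 was at −0.33, Scap at −0.32, Insig1 at −0.29, Stard4 at −0.24 and Srebf2 at −0.18, and Elovl6 and Acly were at −0.22 and Fads1 at −0.21. Much of the male difference was common to all genes. When TPM were rescaled so that the median gene did not differ between libraries (median-of-ratios scaling), the median of all genes moved from −0.10 to 0.00 and that of the members from −0.14 to −0.03. The share of all genes below 0 went from 73.6% to 49.4%. Then 22 members lay below 0, 1 (Lss) was lower at an unadjusted p under 0.05, where 4.98% of all genes were, and 1 (Pmvk, at 0.26) was higher. Lss was at −0.32, Tm7sf2 also at −0.32, Hsd17b7 at −0.25, Srebf1 at −0.22 and Scap at −0.18, while Hmgcs1 (0.05), Fdps (0.09) and Acat2 (0.04) were above 0. Quantile normalization gave another picture, with 28 members below 0 where 45.0% of all genes were. The median was then −0.08 over members and 0.02 over all genes. At an unadjusted p under 0.05, 5 members were lower, where 5.02% of all genes were, and 1 was higher. Transcripts shorter than 200 bases took 8.31% to 14.8% of TPM in AVP males and 6.86% to 8.71% in saline males, and their part in the shift was not tested.

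**Figure D2:**
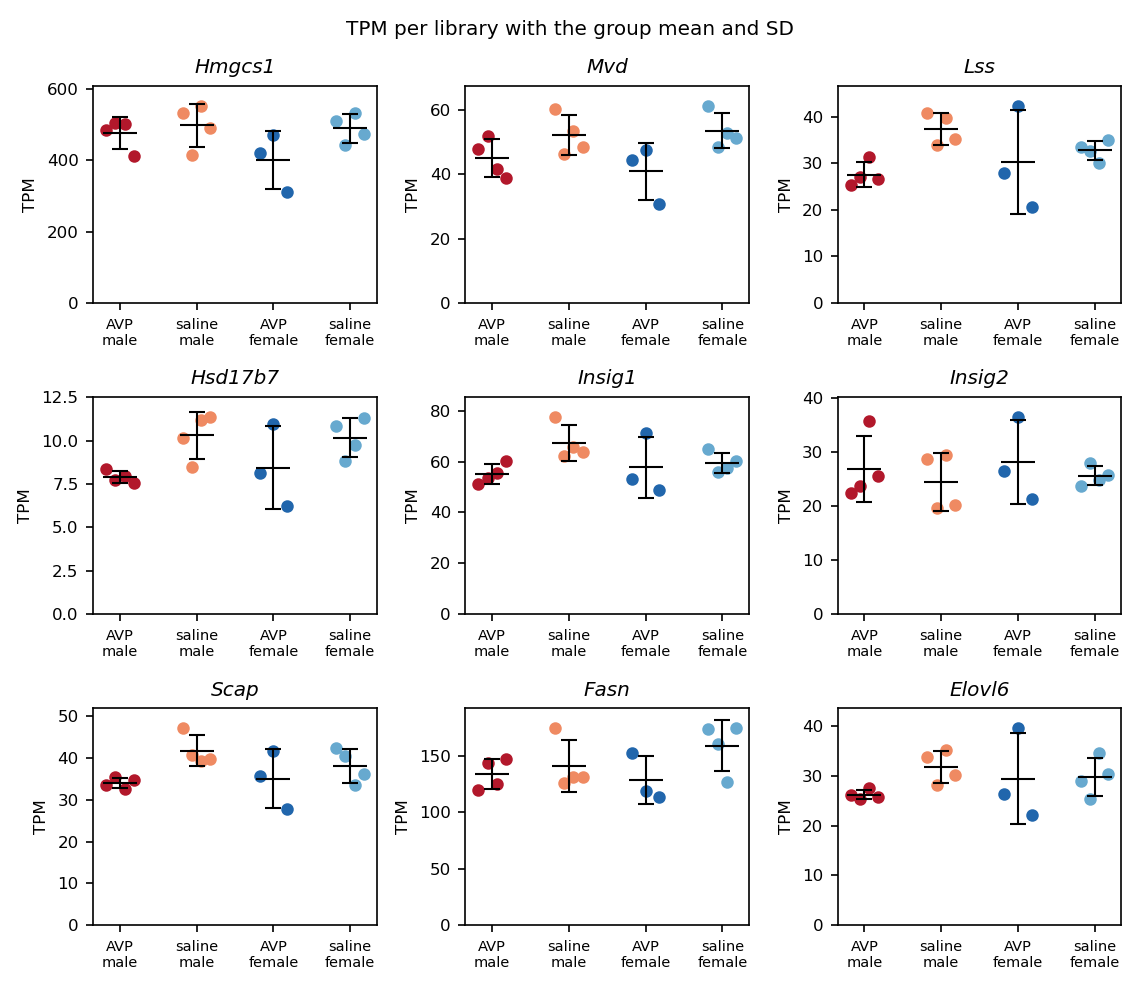
TPM of 9 of the genes in each library (points) by group, with the group mean (bar) and SD (whiskers), on axes that start at 0. Lss, Hsd17b7, Insig1, Scap and Elovl6 do not overlap between AVP and saline males, and AVP females span a wide range for Lss, Hsd17b7, Insig1 and Elovl6, from 20.5 to 42.4 TPM in Lss.

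In females the sterol enzymes held the lowest values. No member passed the adjusted test by limma over 15132 genes (0% of all genes called), and the lowest adjusted p among members was 0.999. Without adjustment 683 genes had p under 0.05. Again 31 of 33 members were below 0, where 63.1% of all genes were, and 30 of 33 lay below the median of all genes. The median was −0.17 over members and −0.05 over all genes. At an unadjusted p under 0.05, 6 members (18.2%) were lower with AVP, where 2.17% of all genes were, and none was higher. With limma run without a mean trend the count was 1 (1.96% of all genes). All 6 were sterol enzymes, whose median was −0.24, while the regulators were at −0.09 and the fatty acid enzymes at −0.14.

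Of these 6, 5 act before squalene, a division made after the values were seen. Mvd, which makes isopentenyl diphosphate, was at 44.5, 47.6 and 30.9 TPM in AVP females and 61.4, 48.7, 52.8 and 51.4 TPM in saline females. The groups did not overlap (log2 fold change −0.40 ± 0.16, adjusted p = 0.999 by limma). Pmvk was at 61.1, 66.0 and 51.0 TPM against 74.4, 70.8, 74.6 and 73.7 TPM, and the saline females lay close together (−0.31 ± 0.105 on the log2 scale). Fdps was at 330.5, 302.3 and 255.1 TPM against 394, 344, 345 and 332 TPM (log2 fold change −0.26 ± 0.11). Acat2 was at 185.5, 180.1 and 152.0 TPM against 220.2, 195.7, 205.3 and 207.7 TPM (−0.27 ± 0.095 on the log2 scale). Mvk was at 38.2, 33.2 and 27.6 TPM against 45.2, 41.9, 37.6 and 39.8 TPM, and AVP female 1 overlapped saline (−0.32 ± 0.13). The sixth, Msmo1, a sterol methyl oxidase after squalene, was at 98.8, 116.5 and 98.1 TPM against 128.0, 114.9, 124.6 and 130.6 TPM (−0.26 ± 0.095). Pmvk, Mvd, Fdps and Acat2 did not overlap between the groups, which is 12.1% of the members, where 2.77% of all genes did so and were lower with AVP. Without overlap the exact two-sided permutation p of 3 libraries against 4 is always 0.0571. The count was 17 without AVP female 2 (16.2% of all genes) and 7 without saline female 2 (4.43%), and on leaving out a library it can only grow or stay.

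Hmgcs1 was at 421, 473 and 312 TPM in AVP females and 510, 442, 533 and 475 TPM in saline females, with overlap (log2 fold change −0.30 ± 0.14). Fasn was at 152.9, 118.9 and 114.1 TPM against 173.9, 161.1, 127.0 and 175.1 TPM (−0.31 ± 0.15 on the log2 scale). Among the regulators, Srebf1 did not lean either way (−0.00 ± 0.21), Insig1 was at −0.06 ± 0.14, Scap at −0.13 ± 0.16 and Insig2 at 0.10 ± 0.18. AVP female 2 was the highest of the 15 libraries for Srebf1 (45.7 TPM) and Insig2 (36.6 TPM), while AVP female 3 was the lowest for Insig1 (48.7 TPM) and Scap (27.7 TPM). Elovl6, for instance, was at 26.5, 39.7 and 22.1 TPM in AVP females and 25.4 to 34.6 TPM in saline females.

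The female values rested on these libraries. Without AVP female 3, 19 of 33 members were below 0, 1 was lower at an unadjusted p under 0.05 (1.001% of all genes), and the median was −0.04 over members against 0.03 over all genes. Mvd was then at −0.21, Pmvk at −0.21, Fdps at −0.16, Acat2 at −0.18, Mvk at −0.20 and Msmo1 at −0.21 on the log2 scale. Without AVP female 2, all 33 members were below 0, 14 had an unadjusted p under 0.05 (8.58% of all genes), and the median was −0.31 against −0.14. Without saline female 1, 1 member had an unadjusted p under 0.05 (0.816% of all genes). Scaling by the median gene changed little in females: 30 members were below 0, with a median of −0.14 against −0.02, and 6 had an unadjusted p under 0.05, where 2.42% of all genes were lower at that level. The share of all genes below 0 went from 63.1% to 56.2%, and to 51.9% under quantile normalization, where 29 members were below 0 and 4 had an unadjusted p under 0.05. Without saline female 4 that count was 3. Markers of other cells moved in the same comparison. All 8 meningeal markers lay above 0 in AVP females, by a median of 0.88 on the log2 scale and 7 of them at an unadjusted p under 0.05, and the 5 red blood cell markers tested were higher by a median of 1.04, all 5 at that level. The 8 cycling cell markers were higher by a median of 0.36, 4 of them at that level, and the 6 markers of oligodendrocyte precursors had a median of −0.46, with 2 lower at that level. Their sum was 38.7 to 70.8 TPM in AVP females and 71.9 to 106 TPM in saline females. The meningeal sum was 181 to 267 TPM against 112 to 132 TPM, and the cycling sum 232 to 319 TPM against 176 to 238 TPM. The 6 endothelial markers had a median of 0.43, 3 of them higher at that level. The 4 choroid plexus markers tested had a median of 2.14, 1 of them higher at that level. All 10 markers of interneurons and ventral forebrain lay below 0, none at that level. Of all 15132 genes, 683 were at that level in either direction, and 2.17% were lower at it. No listed marker was at 0 throughout a group, and none passed the adjusted test. The part these cells have in the values of the 33 genes was not tested, and in such tissue fewer cells of a type and less RNA per cell cannot be told apart.

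**Figure D3:**
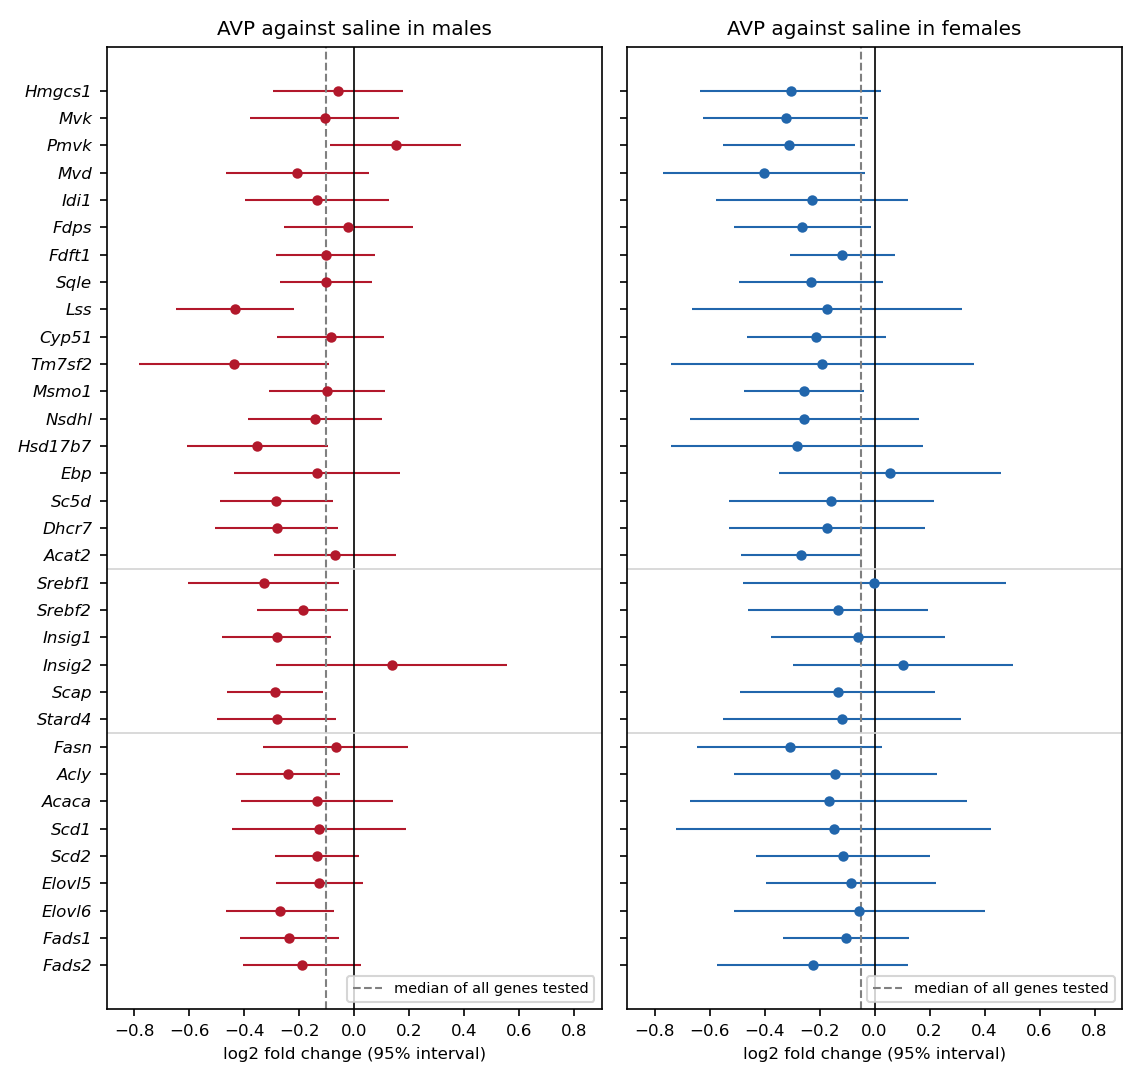
Log2 fold change of each gene between AVP and saline, with its 95% interval, in males (left) and females (right), ordered by role, and the median of all genes tested as a dashed line at −0.10 and −0.05. In both sexes 31 of the 33 points lie left of 0, and no gene passed the adjusted test.

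Over both sexes together, with sex as a covariate, 32 of 33 members were below 0 (73.9% of all genes were), the exception being Insig2 at 0.12 ± 0.13. No member passed the adjusted test by limma over 15078 genes (0% of all genes called), with a lowest adjusted p of 0.462 among members and 1564 genes at an unadjusted p under 0.05. At that level 15 members (45.5%) were lower with AVP, where 9.69% of all genes were: 10 sterol enzymes, 2 regulators and 3 fatty acid enzymes. This fit counts brains of the same litter as independent although the dam was treated, so its p-values do not measure the spread between litters. The median was −0.18 over members and −0.08 over all genes, and 30 of 33 members lay below the latter. The lowest p-values were those of Hsd17b7 (log2 fold change −0.32 ± 0.11), Mvd (−0.30 ± 0.10) and Fads1 (−0.18 ± 0.061), each with an adjusted p of 0.462 by limma. Leaving out 1 library moved the count of 15 widely. It was 3 without AVP female 3 (5.51% of all genes), 8 without saline male 3 (6.56%), 8 without saline female 1 (7.39%), 9 without saline male 1 (6.01%) and 23 without AVP female 2 (22.9%). In the last case the lowest adjusted p among members was 0.0562. Scaling by the median gene left 30 members below 0, with a median of −0.10 against −0.01, and 6 at an unadjusted p under 0.05, where 4.47% of all genes were lower. The share of all genes below 0 went from 73.9% to 52.0%.

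**Figure D4:**
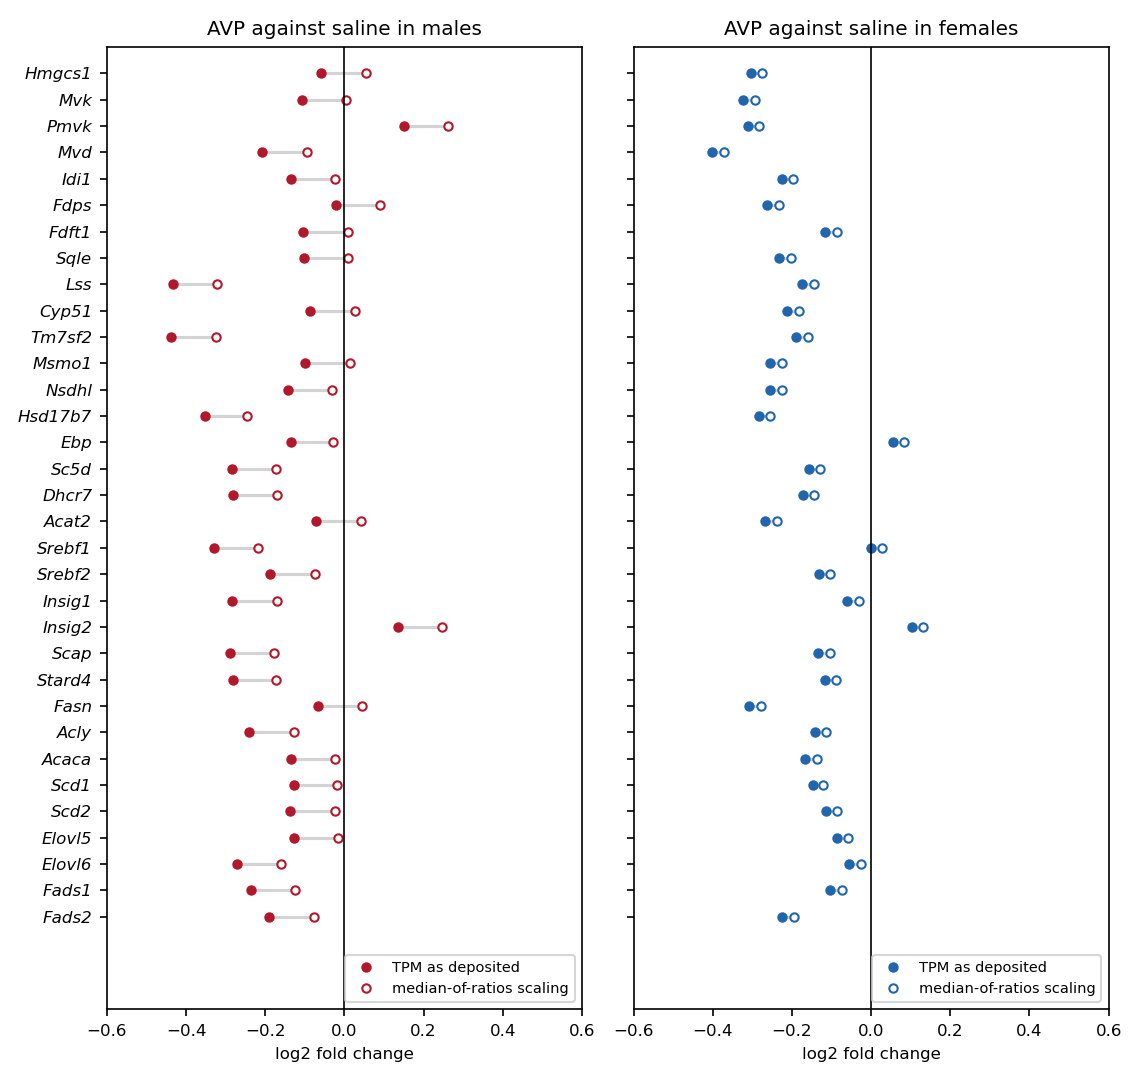
Log2 fold change of each gene between AVP and saline in males (left) and females (right), from TPM as deposited (filled) and after median-of-ratios scaling (open). In males every point moves right and the number below 0 goes from 31 to 22; in females it goes from 31 to 30.

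The sexes were then compared directly. The interaction of treatment and sex called no member and no gene (0% at an adjusted p of 0.05, by limma over 15078 genes), with 624 genes (4.14%) at an unadjusted p under 0.05. This fit, too, counts brains of the same litter as independent. Pmvk was the 1 member of 33 at that level. Its log2 fold change was 0.15 in males and −0.31 in females, an interaction of −0.46 ± 0.15 on the log2 scale (adjusted p = 0.896 by limma, 95% interval −0.78 to −0.14). Without AVP male 2, which was at 85.6 TPM of Pmvk where the other AVP males were at 63.9 to 67.6, the interaction was −0.37. Without AVP female 3 there were 4 members at that level, and 1216 of 15205 genes. Neither the regulators nor the early sterol enzymes passed the test of a difference between the sexes. The interaction was 0.33 ± 0.25 for Srebf1, 0.22 ± 0.16 for Insig1, 0.26 ± 0.24 for Lss, −0.19 ± 0.20 for Mvd and −0.24 ± 0.15 for Fdps, each with an adjusted p of 0.896 by limma. Saline females and males were compared with the library labelled saline male 3 among the males. The test called 1 gene of 15385 (0.00650%), the gene model Gm25291, named after its value was seen, and no member. At an unadjusted p under 0.05 there were 639 genes (4.15%) and again 1 member, Pmvk, at 73.4 ± 1.76 TPM in saline females (SD, n = 4) and 63.2 ± 4.84 TPM in saline males (SD, n = 4), without overlap (log2 difference 0.22 ± 0.066, adjusted p = 0.928 by limma). The median difference was −0.04 both over members and over all genes, and 21 members were below 0. Without saline male 3 the difference of Pmvk was 0.25, the median was 0.01 over members and −0.01 over all genes, and 16 members were below 0.

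The genes varied together from library to library within the groups. With group means subtracted, the median Pearson correlation over the 528 pairs of members was 0.601 across the 15 libraries, where it was 0.16 over all pairs of genes tested, and 97.3% of member pairs were positive, where 65.6% of all pairs were. These are descriptions, since the points share libraries and the library totals that TPM are divided by. The pairs of all genes were not matched to the members in level. Pairs of sterol enzymes had a median of 0.612, pairs of fatty acid enzymes 0.565, pairs of regulators 0.622, and pairs of a sterol with a fatty acid enzyme 0.602. After median-of-ratios scaling the median was 0.361 over members and −0.00335 over all genes, with 0.45 for sterol and 0.238 for fatty acid enzymes. Without AVP female 3 it was 0.442 (0.0997 over all genes) and without AVP female 2 0.485 (0.0966). The labels number the libraries in 2 runs of numbers with a gap between them, of 7 and 8 libraries here. They do not say whether these were sequencing or preparation batches. Subtracting the mean of each run of numbers as well gave 0.665.

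Some members followed the group closely and others did not. Against the mean z score of the other sterol enzymes, with group means subtracted over 15 libraries, the correlation was 0.924 for Hmgcs1, 0.914 for Fads2, 0.909 for Scd2, 0.897 for Srebf2, 0.893 for Stard4, 0.885 for Mvd and 0.883 for Sqle. After scaling the values were 0.902 for Hmgcs1, 0.834 for Scd2, 0.832 for Fads2, 0.812 for Sqle and 0.762 for Srebf2. Tm7sf2 (0.214), Fasn (0.279) and Mvk (0.417) followed least, and after scaling the lowest were Tm7sf2 (−0.21), Elovl5 (0.0179), Srebf1 (0.0836) and Fads1 (0.0972). Srebf2 thus lay nearer to the sterol enzymes than Srebf1 did under both scalings (0.897 and 0.523 before scaling), with no test of that difference. Outside the members, genes of at least 5 TPM with a pattern much like the sterol score included Arhgap23 (Pearson r = 0.965 over 15 libraries), Syngr1 (0.954), Nrxn2 (0.953), Cmip (0.949), Snap91 (0.948), Dmtn (0.948) and Hpcal4 (0.946), out of 11549 genes compared, of which 31.0% had r above 0.5. After scaling Dmtn stood first at 0.915.

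A library's sterol score, the mean z score of the 18 enzymes, ran from −1.97 in AVP female 3 to 1.01 in saline female 1 and in the library labelled saline male 3. After median-of-ratios scaling AVP female 3 was at −1.12 and AVP male 4 at −1.03. The summed TPM of the 18 enzymes was 1920 ± 128 in AVP males and 2050 ± 203 in saline males (SD, n = 4 each). It was 1750 ± 251 in AVP females (SD, n = 3) and 2070 ± 115 in saline females (SD, n = 4). The sum over the 9 fatty acid enzymes was 951 ± 34.9 and 1070 ± 84.0 TPM in males, and 941 ± 172 and 1040 ± 60.7 TPM in females. Sterol and fatty acid scores moved together with r = 0.931 (Spearman's rho 0.921), and with r = 0.875 without AVP female 2 and AVP female 3. After scaling of both scores r was 0.859 (rho 0.754). The unscaled sterol score also followed the median log2 ratio of all genes (r = 0.66, rho 0.486). That r was 0.141 without AVP female 2 and AVP female 3, and 0.0901 and 0.869 in the 2 runs of library numbers. Markers of other cells were then set beside the sterol score after scaling. In the deviations of the 8 cycling cell markers from group means, 4 libraries stood apart from the other 11. They were 1 of each group (AVP male 4, saline male 2, AVP female 3 and saline female 2). Their mean marker level lay 0.219 to 0.444 above that of their group on the log2 scale, and the deviations of their sterol scores ran from −0.966 to −0.396. In the other 11 the marker level ran from −0.313 to −0.000795 and the sterol score from −0.00778 to 0.716. The 2 sets are sets of deviations and do not hold for the unscaled levels. The unscaled mean log2 level of these markers was 4.84 in AVP female 2, above 4.71 in saline male 2 and 4.69 in saline female 2. Since the deviations fall into 2 sets, the relation is also given within the 11. There the sterol score was lower with more of these markers (r = −0.848, rho −0.809), as over all 15 libraries (r = −0.94). The deviations used within the 11 are from group means that include the 4 libraries, 1 in each group. The 4 libraries thus still act on every value given within the 11. In the 6 oligodendrocyte precursor markers the same 4 libraries lay at −0.346 to −0.17 and the other 11 at −0.196 to 0.248, so that the sets overlapped, with r = 0.494 (rho 0.509) within the 11. Of the other 11 marker lists choroid plexus had r = 0.708, red blood cells −0.537, intermediate progenitors −0.328 and meningeal fibroblasts −0.305 within the 11 libraries, and the remaining 7 lay between −0.117 and 0.127. Over all 15 libraries r was −0.0705 for choroid plexus, −0.838 for red blood cells, −0.862 for intermediate progenitors and −0.435 for meningeal fibroblasts. It was 0.785 for oligodendrocyte precursors, and the remaining 7 lists ran from −0.594 for radial glia to 0.29 for astroglia. Sterol and fatty acid scores, both without scaling, had r = 0.877 within the 11. In all 31 relations of this kind were computed with group means subtracted, before the 11 libraries were taken alone, and the part of these cells in the scores was not tested.

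**Figure D5:**
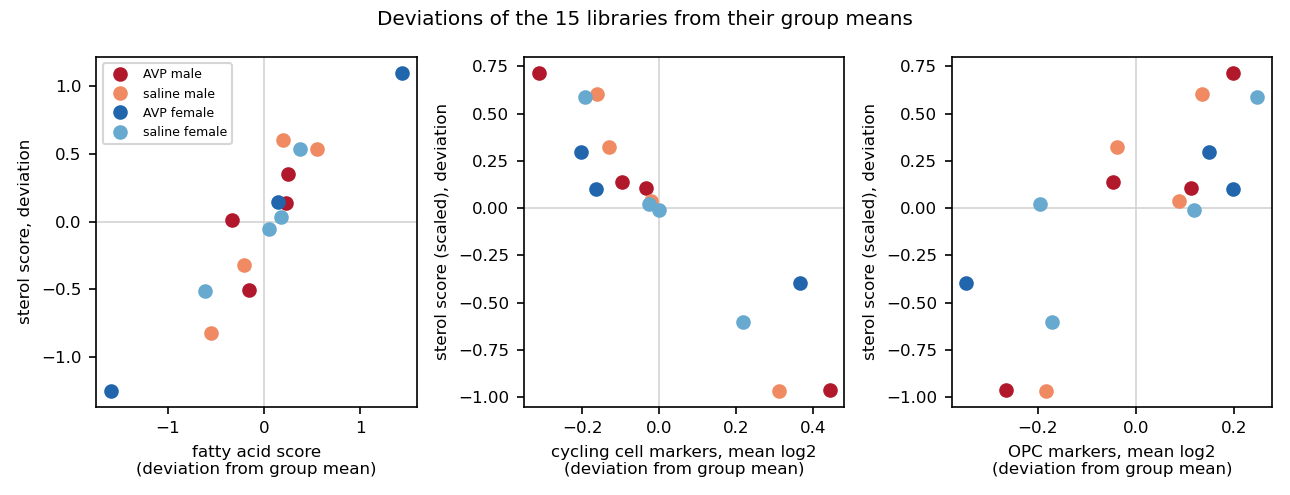
Each point is 1 of the 15 libraries, as its deviation from its group mean: sterol against fatty acid score (left), and the sterol score after scaling against the mean log2 level of cycling cell markers (middle) and of oligodendrocyte precursor (OPC) markers (right). The first relation rises (r = 0.931 over 15 libraries). In the second, 4 libraries lie apart at the lower right and the other 11 fall from left to right (r = −0.848). The group means include the 4 libraries.

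For several members transcripts that are not protein-coding made up a large part of the gene value. Protein-coding transcripts made up 36.4% of the TPM of Lss, whose most abundant transcript was Lss-204, a retained-intron form of 6992 bases with 35.4%. The share was 56.2% for Srebf1, 57.5% for Fasn, 57.7% for Ebp, 69.0% for Msmo1 and 72.3% for Tm7sf2. With protein-coding transcripts only, a choice made after seeing the data, Lss was at 10.97 ± 2.48 TPM in AVP males and 13.9 ± 1.81 TPM in saline males (SD, n = 4 each), a log2 difference of −0.35. Srebf1 then differed by −0.11 between AVP and saline males, Tm7sf2 by −0.34, Insig1 by −0.18 and Insig2 by −0.00. Ebp was at 6.69 ± 0.93 TPM against 5.47 ± 0.64 TPM, so that its log2 difference was 0.27 where it was −0.14 over all transcripts. The members' median was −0.14 in males, with 31 of 33 below 0, and −0.17 in females, with 30 of 33.

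Other genes of lipid metabolism were counted in the fit over both sexes, in which 73.9% of all genes were below 0. Of 24 further genes of sterol and isoprenoid synthesis and SREBP processing tested, none passed the adjusted test, 20 were below 0 and 5 were lower at an unadjusted p under 0.05 (9.69% of all genes were), with a median of −0.13 against −0.08 over all genes. Among them were Aacs, which makes acetoacetyl-CoA (log2 fold change −0.28 ± 0.095), and Erg28, a scaffold of the sterol demethylation complex (−0.20 ± 0.070). Of 30 further genes of fatty acid and phospholipid synthesis, none passed the adjusted test, 28 were below 0 and 5 were lower at that level, with a median of −0.15. Among these were Tecr, a reductase of fatty acid elongation (−0.24 ± 0.087), and Fads3 (−0.29 ± 0.12). Of 24 genes of sterol efflux, esterification and uptake, none passed the adjusted test, 20 were below 0 and 6 were lower at that level, with a median of −0.15. Among these were Abcg4, a sterol exporter (−0.51 ± 0.16), Osbpl5, a lipid transfer protein (−0.34 ± 0.10), and Scarb1, a lipoprotein receptor (−0.23 ± 0.085). In males the efflux list had a median of −0.23 (−0.10 over all genes) and 9 of 25 genes lower at an unadjusted p under 0.05 (12.4% of all genes). In females it had a median of −0.05 (−0.05 over all genes) and 1 of 24 lower at that level (2.17%), and the difference between the sexes was not tested for the list.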

How the data were processed

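mRNA-seq was measured in 15 dorsal forebrain libraries (TruSeq stranded). The authors trimmed reads with Trim Galore 0.4.1 and quantified transcripts with kallisto 0.43.1 against GRCm38 transcripts, and deposited TPM for each transcript and library. TPM hold no read counts, so the depth and counting error of a library are unknown. TPM of 133849 transcripts were summed to 53337 genes, and 404 transcripts without a gene (0.154% to 0.199% of TPM) were left out. Samples were grouped by labelled treatment and sex.

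Genes that reached 1 TPM in 50% or more of the compared libraries were fitted with limma 3.58.1 (R 4.3.3, moderated with a mean trend) on log2(TPM + 0.5), with Benjamini-Hochberg adjustment over all genes tested. Male, female, two-sex (sex as covariate), interaction and saline sex comparisons were made. Single members whose groups did not overlap were given an exact two-sided permutation test (scipy 1.17.1). The script was tested on simulated data. Alternatives were pseudocounts of 0.1 and 1, no filter, at least 5 TPM in every library, quantile and median-of-ratios scaling, no trend, the run of library numbers, and leaving out each library. Protein-coding transcripts alone were added after the data were seen.

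All members are named. Genes of wider lists were named if called, otherwise up to 4 a list with the smallest p over both sexes, and up to 8 genes most like the sterol score. Some genes that these rules select are not reported here by name. The members and lists were chosen with earlier results of these data known. Promoters are those of RefSeq (GRCm38.p6).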

Additional observations from a re-analysis of the deposited data

Results flagged for a closer look

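For each of the 33 genes, the highest and lowest library was compared with the rest of its group in the 3 groups of 4 libraries. Of 99 such groups 3 held a library far from the others by Dixon's test, where chance alone would give 4.95. Pmvk was at 85.6 TPM in AVP male 2 and at 63.9 to 67.6 TPM in the other AVP males. Fasn was at 175 TPM in saline male 1 and at 127 to 132 TPM in the other saline males. Elovl5 was at 38.3 TPM in AVP male 3 and at 35.1 to 35.6 TPM in the other AVP males. The group of 3 AVP females was not examined in this way.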

How the results depend on the processing

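No member passed the adjusted limma test in any comparison under any alternative run. Of 3471 values compared with an alternative 3416 stayed on their side of the threshold or within their limit and 55 moved beyond it. A fold change that was not called counted as unmoved if its sign held, whatever its size, or if it changed by less than its SE. Counts at an unadjusted p were not among these values, so the tally does not show how firm those counts are. Members, none of them called, did change sign: 9 in males after median-of-ratios scaling, 12 in females without AVP female 3 and 11 in the interaction without AVP female 2. The count of all genes called in males, 1 as reported, was 0 with a pseudocount of 1, 0 with at least 5 TPM in every library, 0 with the run of library numbers as a covariate, 2 without a trend, and 0 to 6 on leaving out 1 library. The count in females, 0 as reported, was 0 to 6 on leaving out 1 library, that over both sexes 0 to 1, and that of the interaction 0 to 1. The count between the sexes in saline libraries, 1 as reported, was 0 with a pseudocount of 1, 0 without a filter, 0 with at least 5 TPM in every library, and 0 to 4 on leaving out 1 library. The median correlation between members, 0.601 as reported, was 0.361 after median-of-ratios scaling and 0.442 to 0.625 on leaving out 1 library. In females the number of members at an unadjusted p under 0.05 was 6 with a trend and 1 without. The cause of these changes was not tested. No paired analysis was possible because the labels give no replicate numbers shared by the groups and link no littermates. TPM hold no counts, so what depth limits cannot be given.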
